A study of Mus musculus with 12 samples.

Results

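The genes of glucocorticoid signalling described here are 10 of the 41388 genes in the count table: the 2 corticosteroid receptors Nr3c1 and Nr3c2, and 8 genes widely used as readouts of glucocorticoid exposure, Fkbp5, Sgk1, Tsc22d3, Zbtb16, Pdk4, Cdkn1a, Mt1 and Mt2. They were named from textbook knowledge of the pathway and not from a threshold on their values, but with earlier results of these data known. RNA was sequenced from the medial prefrontal cortex of male Swiss Webster mice at 10 weeks of age, in 12 libraries, 4 per group. CON mice were raised conventionally, GF mice were germ-free in isolators, and exGF mice were germ-free until postnatal day 21, just after weaning, and were then kept beside CON mice so that they acquired microbes. All received the same autoclaved diet. Each library was made from a pool of 2 to 3 animals, so that errors and p-values describe the spread between pools and a single animal was not measured. No corticosterone measurement and no receptor protein measurement was used here.

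Glucocorticoids reach the brain from the adrenal gland and bind receptors held in the cytoplasm by chaperones. Bound receptors enter the nucleus and raise or lower the transcription of target genes, partly by binding palindromic DNA elements. The mineralocorticoid receptor, encoded by Nr3c2, binds corticosterone more tightly than the glucocorticoid receptor, encoded by Nr3c1, and the prefrontal cortex is among the brain regions through which the stress axis is restrained.

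RefSeq windows of 250 bases before an annotated start on GRCm38.p6 were searched on both strands for receptor and metal elements. Of the 10 genes, 8 had a window, 16 windows in all, and Nr3c1 and Zbtb16 had none. The palindrome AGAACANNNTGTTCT lay in 3 of 32851 windows of the genome (0.00913%), and a window of Sgk1 was among them. The shorter form GNACANNNTGTNC lay in 127 windows (0.387%), including that of Sgk1, where it overlaps the palindrome, and that of Mt1, as GGACATGATGTTC 94 bases before the start. The core TGCACNC or TGCGCNC of the metal response element, through which zinc acts on metallothionein genes, was common, in 7032 windows (21.4%). There were 3 matches before Mt2, 1 before Mt1 and 1 before Nr3c2. All 250 bases of the Mt2 window lie in annotated exons, and it ends before the gene start used for counting (chr8:94172664). Letters after the annotated RefSeq starts were not searched, so these are not counts of all metal elements of a gene. The 3 windows are shown because they hold these letters and because the results below turn on Sgk1 and the metallothioneins. Capitals mark the palindrome in Sgk1 and the metal element cores in Mt1 and Mt2.
Sgk1, chr10:21993640-21993889, plus strand: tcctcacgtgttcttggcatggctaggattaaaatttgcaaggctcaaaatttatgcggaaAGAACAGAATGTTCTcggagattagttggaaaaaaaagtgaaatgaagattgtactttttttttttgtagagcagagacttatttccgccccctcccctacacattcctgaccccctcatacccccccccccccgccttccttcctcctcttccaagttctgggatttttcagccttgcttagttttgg
Mt2, chr8:94172368-94172617, plus strand: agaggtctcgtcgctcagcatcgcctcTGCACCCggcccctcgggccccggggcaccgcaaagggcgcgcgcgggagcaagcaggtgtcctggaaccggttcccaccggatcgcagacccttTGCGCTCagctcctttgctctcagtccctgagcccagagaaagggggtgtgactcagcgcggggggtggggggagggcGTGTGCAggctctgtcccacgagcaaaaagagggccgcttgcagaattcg
Mt1, chr8:94178839-94179081, plus strand: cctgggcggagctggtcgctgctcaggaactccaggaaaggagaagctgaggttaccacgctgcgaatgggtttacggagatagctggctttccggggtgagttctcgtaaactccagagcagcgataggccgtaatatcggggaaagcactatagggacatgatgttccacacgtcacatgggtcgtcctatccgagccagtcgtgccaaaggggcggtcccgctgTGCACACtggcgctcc
The Sgk1 palindrome began 189 bases before that start, at chr10:21993701-21993715, upstream of 1 of its 6 RefSeq starts. A match describes letters in a window and is not a measured binding site, and a window without them says nothing about the receptor.

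Between 13280926 (GF replicate 1) and 29134760 (CON replicate 3) fragments were counted on genes per library. The lowest count of any of the 10 genes in any library was 133, for Pdk4. CON replicate 2 and the exGF library GFR4 stood apart in striatal neuron genes, whose mean log2 CPM (CPM being counts scaled to a common library total) was 4.66 and 4.64 against 3.01 to 3.74 in the other 10 libraries. Values of the exGF group are given in the order of the columns GFR1 to GFR4, which could not be tied to single labelled samples.

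All 10 genes were expressed in every library and passed the filter on low counts in each comparison. Per kilobase of annotated exon, averaged over the 12 libraries, Mt2 (76.4 ± 18.5 CPM per kb, SD) and Mt1 (73.5 ± 17.4) stood highest, and no library of either fell as low as the highest library of any other member. Nr3c1 followed with 13.3 ± 1.17, Sgk1 with 10.4 ± 1.84 and Tsc22d3 with 9.75 ± 1.43 CPM per kb. Lower levels were found for Cdkn1a (8.32 ± 0.845), Zbtb16 (7.44 ± 1.55), Nr3c2 (4.57 ± 0.408), Pdk4 (3.69 ± 0.515) and Fkbp5 (2.84 ± 0.262). Apart from the step between Mt1 and Nr3c1, every pair of neighbours in this order overlapped in the range of its libraries. The order depends on annotated exon length, which was 588 bases for Mt2 and 1246 for Mt1, the whole span of that gene. By CPM alone Nr3c1 averaged 102, Mt1 91.6 and Mt2 44.9.

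Germ-free mice were compared with conventional mice to ask whether the absence of microbes changes the cortical transcriptome. GF mice lived in isolators, whereas CON mice, and exGF mice from postnatal day 21, lived in the standard animal unit. In both comparisons with GF, housing and microbes therefore cannot be told apart. None of the 10 genes was called by edgeR (quasi-likelihood test, Benjamini-Hochberg adjusted p under 0.1), where 39 of 15542 genes tested were called (0.251%). Tsc22d3 and Sgk1 were the 2 members with an unadjusted p under 0.05, a level that 8.69% of all tested genes reached. By DESeq2 both were called as higher in GF (195 of 24399 genes called, 0.799%), and edgeR without a filter on low counts also called both (221 of 24405, 0.906%). Here and below, DESeq2 shares are over all genes with an unadjusted p. These include any low-count genes to which DESeq2 gave no adjusted p. The DESeq2 and no-filter shares are thus not on the same base as the main edgeR share. The median log2 difference of the 10 members was 0.03, beside 0.01 over all tested genes, with 6 members higher and 4 lower.

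Nr3c1 (ENSMUSG00000024431, chr18:39410545-39519421, minus strand, GRCm38) encodes the glucocorticoid receptor. It was measured at 103, 94.2, 99.4 and 99.3 CPM in CON, at 97.2, 110, 99.7 and 115 CPM in GF, and at 120, 105, 95.3 and 89.3 CPM in exGF. The 3 groups overlapped, and exGF held both the highest and the lowest library. The log2 difference was 0.09 for GF over CON (95% interval -0.08 to 0.27; edgeR adjusted p = 0.790), a range of -5.48% to 20.3%. For exGF over CON it was 0.04 (-0.16 to 0.25) and for GF over exGF 0.04 (-0.18 to 0.26).

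Nr3c2 (ENSMUSG00000031618, chr8:76899442-77245012, plus strand) encodes the mineralocorticoid receptor. Its values were 28.02, 28.07, 28.07 and 31.09 CPM in CON, 25.1, 34.7, 27.1 and 32.6 CPM in GF, and 32.0, 29.1, 29.9 and 29.5 CPM in exGF. The CON pools other than replicate 4 were almost equal, and the GF pools spread to both sides of them. The log2 difference was 0.06 in GF over CON (-0.18 to 0.29; edgeR adjusted p = 0.920) and 0.06 in exGF over CON (-0.13 to 0.24). Nr3c2 shares 247 exon bases with the antisense gene Gm10649, and the counting ignored strand.

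Sgk1 (ENSMUSG00000019970, chr10:21882184-21999903, plus strand) encodes a kinase of ion transport and cell survival that is rapidly transcribed after glucocorticoid exposure and is abundant in oligodendrocytes. It stood at 43.3, 38.7, 45.4 and 51.2 CPM in CON, 49.2, 55.8, 64.6 and 69.2 CPM in GF, and 56.1, 44.7, 47.9 and 44.6 CPM in exGF. GF replicates 2 to 4 lay above every CON pool, while GF replicate 1 lay below CON replicate 4. The GF mean was 59.7 ± 8.94 CPM (SD, n = 4) and the CON mean 44.7 ± 5.17, a log2 difference of 0.42 (SE 0.12, 95% interval 0.17 to 0.67). This did not pass the threshold (edgeR quasi-likelihood test, Benjamini-Hochberg adjusted p = 0.244). DESeq2 gave 0.33 with an adjusted p of 0.0985. The exGF mean was 48.3 ± 5.39 CPM, 0.10 above CON on the log2 scale (-0.12 to 0.33; edgeR adjusted p = 0.970). GF stood 0.31 above exGF (0.05 to 0.56; edgeR adjusted p = 0.736).

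Tsc22d3 (ENSMUSG00000031431, chrX:140539528-140600659, minus strand) encodes the leucine zipper protein GILZ, which carries part of the anti-inflammatory action of glucocorticoids. Its levels were 41.4, 35.8, 35.2 and 36.5 CPM in CON, 50.1, 46.7, 47.9 and 52.6 CPM in GF, and 44.9, 37.2, 35.8 and 43.8 CPM in exGF. Every GF pool lay above every pool of the other groups, and exGF overlapped CON. Such separation of GF upward from CON was found in 2.53% of tested genes, and upward from exGF in 1.55%. From 37.2 ± 2.84 CPM in CON to 49.3 ± 2.61 in GF the log2 difference was 0.41 (SE 0.09, 0.22 to 0.59; edgeR Benjamini-Hochberg adjusted p = 0.125). The call depended on the method, since DESeq2 gave 0.35 with an adjusted p of 0.00573, edgeR without a filter 0.39 with 0.0679, and edgeR without CON replicate 1 0.46 with 0.0971 (0.317% of genes called in that fit). In exGF the difference from CON was 0.11 (-0.10 to 0.33; edgeR adjusted p = 0.968), and GF exceeded exGF by 0.29 (0.08 to 0.50; edgeR adjusted p = 0.736). The 2 comparisons with CON share the CON pools.

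**Figure D1:**
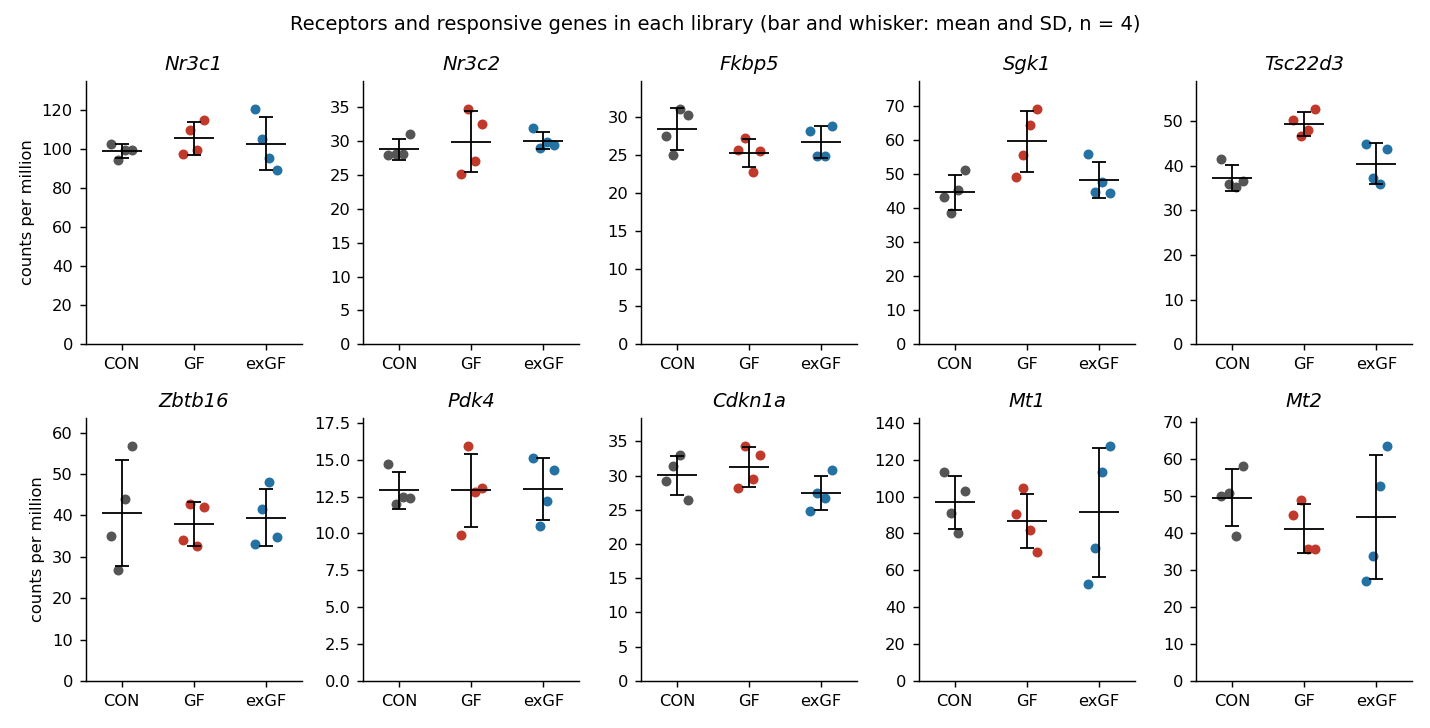
CPM of the 10 genes in each library, with 1 point per library and the mean and SD of each group of 4; each vertical axis starts at 0 and has its own scale. Tsc22d3 is the gene whose 4 GF points (46.7 to 52.6 CPM) all lie above the 8 other points, whereas the exGF points of Mt1 run from 52.3 to 127 CPM.

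Gene groups of cell types and states were read beside these genes, by their range in each group. The 8 oligodendrocyte genes (all detected) had a mean log2 CPM of 7.09 to 7.84 in GF, 6.54 to 6.89 in CON and 6.51 to 7.32 in exGF, so that GF and CON did not overlap. The 12 activity-induced genes, transcribed when neurons fire, ranged from 5.46 to 5.87 in GF, 4.999 to 5.53 in CON and 5.13 to 5.83 in exGF. All 12 were higher in GF than in CON by their log2 difference (median 0.47; 51.7% of all tested genes were higher), 8 at an unadjusted p under 0.05 (4.75% of all tested genes were so and higher), and Dusp6, a phosphatase of the ERK pathway, was called (log2 difference 0.60, SE 0.09; edgeR adjusted p = 0.0168). Clock genes ranged from 5.29 to 5.53 in GF, 5.12 to 5.21 in CON and 5.21 to 5.42 in exGF, with Ciart, a repressor of the clock, called in GF over CON (0.84, SE 0.15; edgeR adjusted p = 0.0315). Ciart lost this call without CON replicate 3 (adjusted p = 0.133) and without GF replicate 4 (0.124). The part of these groups in the values of Sgk1 and Tsc22d3 was not tested, and in bulk tissue more cells of a type and more RNA per cell cannot be told apart. Cortical neuron genes covered 8.26 to 8.52 in GF, 8.14 to 8.32 in CON and 8.25 to 8.45 in exGF, and endothelial genes 5.07 to 5.17, 4.995 to 5.18 and 5.10 to 5.28, with overlap of the groups. Some of the activity-induced genes were also among those the study found raised in GF in these libraries. The study marked such raised genes as activity-related by comparing them with published expression data, Sgk1 and Tsc22d3 among them. As the genes to be marked were taken from these libraries, the mark is not independent evidence of their direction.

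Fkbp5 (ENSMUSG00000024222, chr17:28399094-28517527, minus strand) encodes a co-chaperone that lowers the affinity of the receptor for its ligand and is itself induced by it. It was measured at 27.6, 25.0, 31.1 and 30.3 CPM in CON, 25.7, 27.3, 22.8 and 25.6 CPM in GF, and 28.3, 24.8, 24.9 and 28.9 CPM in exGF. The GF pools sat in the lower part of the CON range or just below it. The log2 difference was -0.17 in GF over CON (SE 0.10, -0.39 to 0.05; edgeR adjusted p = 0.666), and the point estimate thus lay on the other side of 0 from those of Sgk1 and Tsc22d3. In exGF over CON it was -0.10 (-0.32 to 0.12; edgeR adjusted p = 0.973).

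Zbtb16 (ENSMUSG00000066687, chr9:48654297-48836222, minus strand), which encodes the zinc finger repressor PLZF, was more variable among the CON pools than among those of the other groups. Its values were 34.9, 26.8, 44.0 and 56.8 CPM in CON, 34.1, 42.7, 32.6 and 42.1 CPM in GF, and 33.2, 41.6, 48.2 and 34.7 CPM in exGF. The GF and exGF pools lay inside the CON range, and the coefficient of variation was 31.6% in CON, 14.0% in GF and 17.5% in exGF. The log2 difference of -0.10 in GF over CON had an interval of -0.49 to 0.29 (edgeR adjusted p = 0.913), wide enough to hold changes of -29.0% to 22.2%.

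Pdk4 (ENSMUSG00000019577, chr6:5483351-5496309, minus strand) encodes a kinase that turns off pyruvate dehydrogenase in fasting. It stood at 14.7, 12.03, 12.5 and 12.4 CPM in CON, 9.89, 15.9, 12.8 and 13.1 CPM in GF, and 15.1, 10.5, 12.2 and 14.3 CPM in exGF. The group means nearly coincided, with 12.9 ± 1.22 CPM for CON, 12.9 ± 2.47 for GF and 13.03 ± 2.09 for exGF. The interval of the GF over CON log2 difference was -0.29 to 0.31.

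Cdkn1a (ENSMUSG00000023067, chr17:29090976-29100727, plus strand) encodes the cell cycle inhibitor p21, a target of p53 as well as of the glucocorticoid receptor. The CON pools held 29.3, 31.4, 33.1 and 26.4 CPM, the GF pools 28.2, 34.3, 29.5 and 32.9 CPM, and the exGF pools 24.8, 27.4, 26.7 and 30.8 CPM. GF and exGF overlapped only between 28.2 and 30.8 CPM. The log2 difference was 0.19 in GF over exGF (-0.03 to 0.41; edgeR adjusted p = 0.748), 0.06 in GF over CON and -0.14 in exGF over CON. Of the 31-base words of Cdkn1a, 9.78% also occur in other annotated genes.

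The metallothioneins Mt1 (ENSMUSG00000031765, chr8:94179082-94180327, plus strand) and Mt2 (ENSMUSG00000031762, chr8:94172664-94173568, plus strand) are neighbouring genes for small zinc-binding proteins, induced by metals and by glucocorticoids and made in brain largely by astrocytes. Mt1 values were 114, 90.9, 80.1 and 103 CPM in CON, 90.6, 104, 81.9 and 69.7 CPM in GF, and 52.3, 72.3, 113 and 127 CPM in exGF. Mt2 values were 49.9, 50.8, 39.2 and 57.9 CPM in CON, 44.7, 48.7, 35.5 and 35.6 CPM in GF, and 27.0, 33.6, 52.7 and 63.4 CPM in exGF. For each gene GFR1 was the lowest of the 12 libraries and GFR4 the highest. The coefficient of variation of Mt1 was 38.3% in exGF, 15.01% in CON and 16.9% in GF, and that of Mt2 was 38.0%, 15.6% and 16.2%. No mean difference was called: the log2 difference of GF over CON was -0.16 for Mt1 (-0.44 to 0.12; edgeR adjusted p = 0.768) and -0.27 for Mt2 (-0.55 to 0.02; edgeR adjusted p = 0.606). For exGF over CON the intervals ran from -0.57 to 0.39 for Mt1 and from -0.64 to 0.31 for Mt2. Without CON replicate 2 and GFR4, a choice made after the striatal values were seen, exGF over CON moved to -0.31 for Mt1 and -0.36 for Mt2, and neither was called (edgeR adjusted p = 0.946 and 0.939).

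Within groups Mt1 and Mt2 varied together from pool to pool. After the group mean was removed from the log2 CPM, Pearson's r over the 12 libraries was 0.95 (exact permutation within groups, two-sided, p = 0.00116, Benjamini-Hochberg adjusted p = 0.0324 over 28 pairs of responsive genes). Spearman's rho was 0.90 (exact permutation p = 0.00514, adjusted p = 0.144). Without GFR1 and GFR4, the 2 libraries farthest from the median of Mt1, r was 0.88. The pair did not pass the threshold without CON replicate 3 (r 0.95, exact permutation adjusted p = 0.146) or without GFR4 (r 0.93, adjusted p = 0.130). Mt1 had no word of 31 bases in common with any other annotated gene, Mt2 included. Of the words of Mt2, 58.1% occur in other annotated genes, the most in the antisense gene Gm45774, and the counting ignored strand. The remaining 27 pairs had adjusted p above the threshold, and 19 of all 28 had a positive r (median 0.17). With the receptors added, a choice made after the data were seen, the r of Nr3c1 with Mt1 was -0.73 (exact permutation p = 0.0644, adjusted p = 0.483 over 45 pairs; Spearman's rho -0.58, exact permutation p = 0.135), and it was -0.32 without GFR1 and GFR4. No within-group covariation of Fkbp5, Sgk1, Tsc22d3 and Zbtb16 passed the threshold.

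Genes of other cells that also hold metallothioneins were read beside these values. The 7 astrocyte genes covered 7.35 to 7.63 in GF, 7.37 to 7.63 in CON and 7.42 to 7.47 in exGF (mean log2 CPM). The 6 meningeal genes were lower in GF (3.38 to 3.73) than in CON (4.07 to 4.49), with exGF between (3.62 to 3.98). The 5 choroid plexus genes were near the limit of detection. In exGF they followed the order -1.06, -0.57, 0.15 and 0.18 from GFR1 to GFR4, the same order as Mt1 and Mt2. By replicate number they stood at 0.11, 0.09, -0.59 and -0.37 in CON and at 0.61, -0.60, -0.85 and -0.44 in GF. In neither of these groups was the order that of Mt1 or Mt2. The part of astrocyte, meningeal and choroid plexus RNA in the metallothionein values was not tested.

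**Figure D2:**
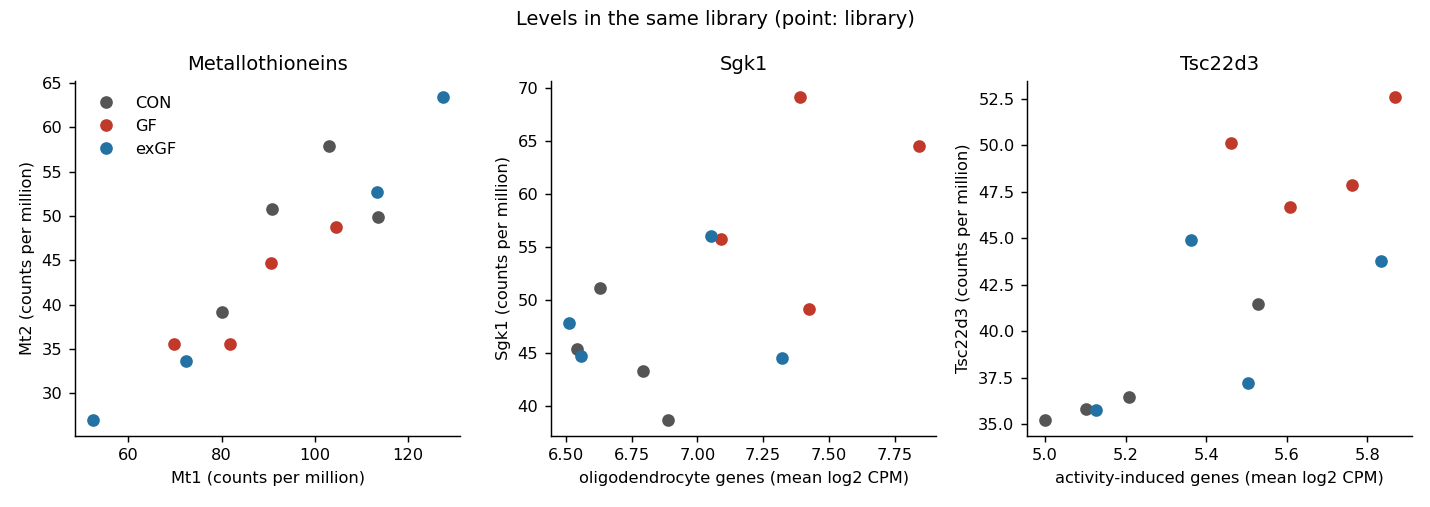
Levels in the same library, with 1 point per library coloured by group: Mt2 against Mt1 (both CPM), Sgk1 (CPM) against the mean log2 CPM of 8 oligodendrocyte genes, and Tsc22d3 (CPM) against that of 12 activity-induced genes; the axes do not start at 0. Mt1 and Mt2 rise together from the exGF library GFR1 (52.3 and 27.0 CPM) to GFR4 (127 and 63.4 CPM). For Sgk1, GF replicate 1 (49.2 CPM) lies below CON replicate 4 (51.2) and GFR1 (56.1). Along the oligodendrocyte axis GFR4 (7.32) lies right of GF replicate 2 (7.09). For Tsc22d3 every GF point is above all others. Along the activity axis GF replicate 1 (5.46) lies left of CON replicate 1 (5.53), GFR2 (5.50) and GFR4 (5.83).

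Taking all 12 libraries, with the group differences left in, the genes whose log2 CPM followed each member most closely among 11384 genes were listed as a description. For Tsc22d3 they were Ier5 (Pearson's r 0.95, Spearman's rho 0.94), Dusp6 (0.92, 0.93) and Mal (0.91, 0.94), the first a gene induced by growth factors and stress and the last a protein of myelin. Sgk1 was followed by Ext1 (0.90, 0.94), an enzyme of heparan sulfate synthesis, Zfp248 (0.87, 0.92) and the lipid transporter Abca8a (0.87, 0.85). For Fkbp5 they were Zbtb5 (0.92, 0.90), Bbs9 (0.87, 0.88) and the neuronal glucose transporter Slc2a3 (0.83, 0.78). The nearest genes to Mt1 after Mt2 (0.95, 0.87) were Efemp2 (0.86, 0.79), a protein of elastic fibres, and Cntfr (0.85, 0.86), the receptor of ciliary neurotrophic factor. Beside Mt1, those nearest to Mt2 were Efemp2 (0.84, 0.78) and Rhpn1 (0.82, 0.79). How high the best of 11384 unrelated genes would reach over 12 libraries was not worked out.

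**Figure D3:**
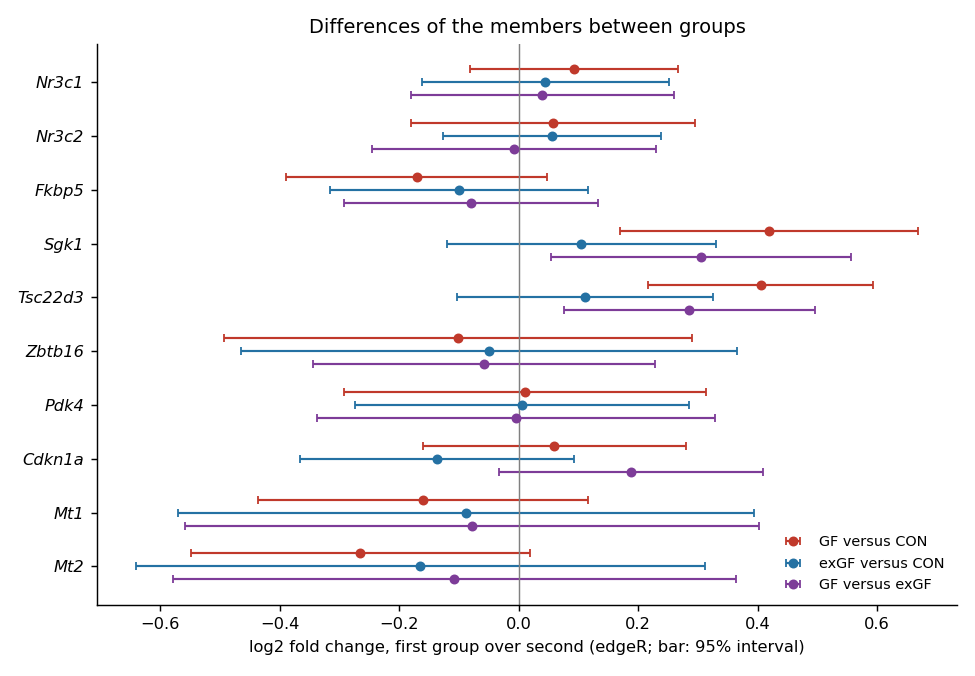
Log2 fold changes of the 10 genes in the 3 comparisons (edgeR), with points for the estimate and bars for its 95% interval; the line at 0 marks no difference. The intervals of Sgk1 (0.17 to 0.67) and Tsc22d3 (0.22 to 0.59) lie above 0 in GF versus CON and also in GF versus exGF, and all other intervals include 0.

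The colonized group asked whether exposure to microbes from weaning brings levels back to those of CON. In exGF versus CON none of the 10 members was called (edgeR, 11 of 15813 tested genes called, 0.0696%), none had an unadjusted p under 0.05 (5.33% of tested genes), and DESeq2 also called none of them (52 of 25050, 0.208%). By log2 difference 5 members were higher and 5 lower, with a median log2 difference of -0.02 beside -0.01 over all tested genes. In GF versus exGF edgeR called 0 of 15569 genes (0.0%), DESeq2 called 14 of 24657 (0.0568%), and of the members Sgk1 and Tsc22d3 had an unadjusted p under 0.05 (6.65% of tested genes). Neither was called by DESeq2 there.

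Other glucocorticoid-induced genes were read as a list of 25, all tested in GF versus CON. The list was chosen with earlier results of these data known. None was called by edgeR. By log2 difference 19 were higher and 6 lower (51.7% of all tested genes were higher), the median was 0.19 beside 0.01 over all tested genes, and 4 higher and 1 lower had an unadjusted p under 0.05 (4.75% and 3.94% of all tested genes). Per1, an early clock gene with glucocorticoid control, stood at 69.9 CPM in CON and 105 CPM in GF (log2 difference 0.59, SE 0.13; edgeR adjusted p = 0.119). Every GF pool of Per1 lay above every CON pool, a separation found in 2.53% of tested genes. DESeq2 called Per1 with an adjusted p of 0.00561. The phosphatase gene Dusp1 stood at 30.8 and 48.9 CPM (0.67, SE 0.16; edgeR adjusted p = 0.154, DESeq2 adjusted p = 0.0135). Named after their values were seen, the other 3 were Klf15 (0.32), Nedd9 (0.35) and the astrocyte gap junction gene Gjb6 (-0.25). Dusp1 and Per1 are also induced by neuronal activity, and Per1 belongs to the clock as well. In exGF versus CON the list had 14 genes higher and 11 lower and a median of 0.02, where 47.9% of all tested genes were higher. There 2 higher and 2 lower genes had an unadjusted p under 0.05 (5.33% of all tested genes had such a p). For 2 genes every exGF pool lay below every CON pool, a separation found in 1.52% of tested genes. The exGF means of Per1 (95.1 CPM) and Dusp1 (41.9 CPM) lay between their CON and GF means. In GF versus exGF 20 of 24 tested genes were higher (51.3% of all tested genes), with a median of 0.14.

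Of 20 receptor chaperones, coregulators and steroid-handling genes tested in GF versus CON, 11 were higher and 9 lower (51.7% of all tested genes were higher). The median log2 difference was 0.00. None had an unadjusted p under 0.05, a level that 8.69% of all tested genes reached. The smallest unadjusted p belonged to Ptges3, the p23 co-chaperone (log2 difference 0.24; edgeR adjusted p = 0.623), and to Hsd11b1, which regenerates active glucocorticoid inside cells (0.24; edgeR adjusted p = 0.646). Among 7 tested genes of the corticotropin-releasing hormone system, 3 were higher and 4 lower in GF versus CON (51.7% of all tested genes were higher). Crh itself stood at 3.89 CPM in CON and 5.96 CPM in GF (0.62, SE 0.18; edgeR adjusted p = 0.275). All GF pools of Crh lay above all CON pools, a separation found in 2.53% of tested genes. The gene of its binding protein, Crhbp, differed by 0.23 (edgeR adjusted p = 0.558), and the list median was -0.13.

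Pathways in which single members also take part were read beside those members. In GF versus CON 51.7% of all tested genes were higher, and 4.75% were higher and 3.94% lower at an unadjusted p under 0.05. Of 11 tested p53 targets, the company of Cdkn1a, 6 were higher and 5 lower in GF versus CON (median 0.05). Those with an unadjusted p under 0.05 were Plk2 (0.18), Gadd45a (0.40, named after its value was seen) and Sesn2 (-0.34). The 10 fasting and fatty acid oxidation genes, the company of Pdk4, had 8 higher and 2 lower (median 0.11), none at an unadjusted p under 0.05. Their smallest p were those of Ppard (0.20) and Acot1 (0.23). The 13 metal and oxidative response genes, the company of the metallothioneins, had a median of 0.02, with Gclm at 0.24 (edgeR adjusted p = 0.568) and Slc7a11 at -0.61 (edgeR adjusted p = 0.218).

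Slc7a11, the cystine transporter subunit of this last list, was the 1 gene of all 90 in the 6 pathway lists that edgeR called in any comparison. It fell in exGF, from 69.2 CPM in CON to 31.7 CPM, with every exGF pool below every CON pool, a separation found in 1.52% of tested genes (log2 difference -1.13, SE 0.11; edgeR adjusted p = 0.000612). In GF it averaged 45.3 CPM. Mt1 and Mt2 were not called in that comparison. In GF versus CON the 86 tested genes of the 6 lists gave 0 calls by edgeR, 12 with an unadjusted p under 0.05, and 3 calls by DESeq2 (Per1, Dusp1 and Slc7a11). Over all tested genes 8.69% had such a p and DESeq2 called 0.799%.

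**Figure D4:**
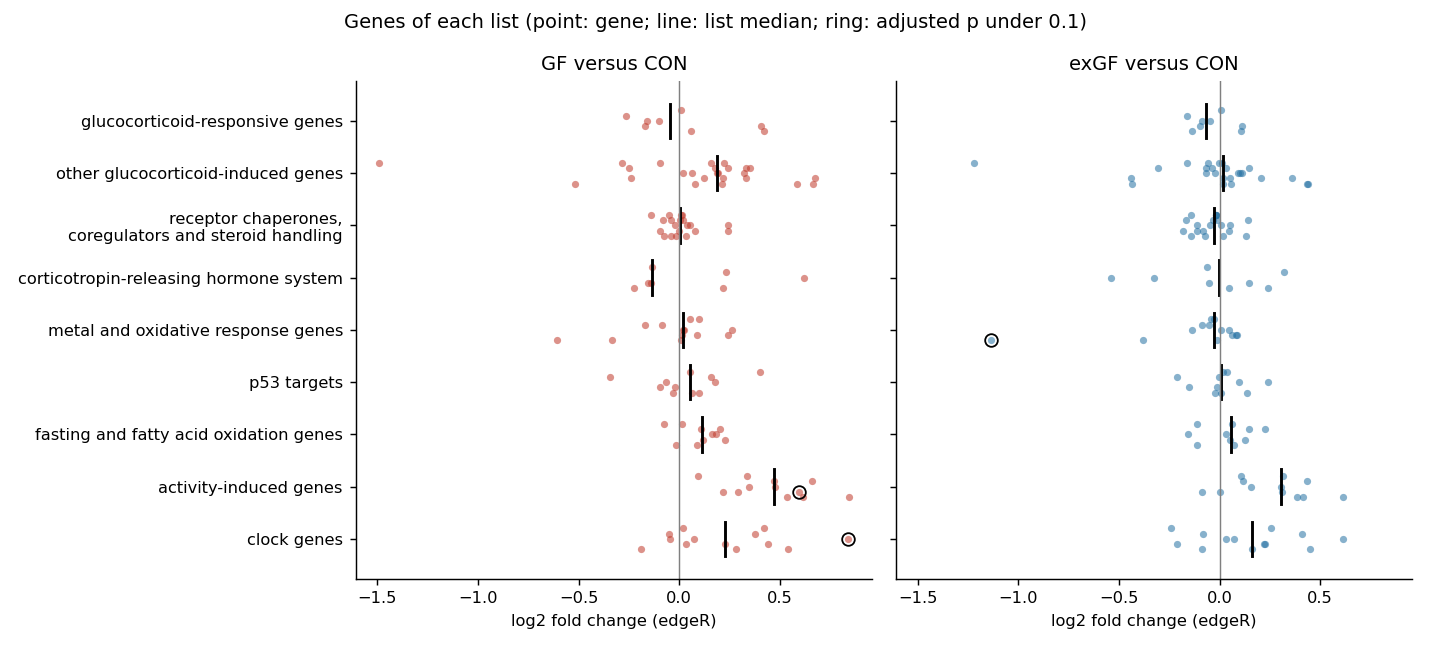
Log2 fold changes (edgeR) of the tested genes in each list, with 1 point per gene, a black line at the list median and a ring around genes at an adjusted p under 0.1, for GF versus CON and exGF versus CON. In GF versus CON the medians of the activity-induced (0.47), clock (0.23) and other glucocorticoid-induced genes (0.19) stand highest, and the 8 responsive members have a median of -0.05; the point far to the left among the other glucocorticoid-induced genes is Lcn2 (-1.49, edgeR adjusted p = 0.619).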

How the data were processed

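PolyA-enriched RNA of medial prefrontal cortex was sequenced as paired reads from a strand-marking kit, and each library pooled 2 to 3 animals. Per the study's methods and the labels, the authors trimmed reads with Trimmomatic, aligned them with STAR to GRCm38.p3 with Ensembl 78 and counted fragments per gene with HTSeq without regard to strand, and the deposited values are raw counts. Reads on no annotated gene were 4.57% to 7.31%, ambiguous reads 1.10% to 1.32% and reads aligned to several places 12.95% to 19.2% of the total. These were left out of library sizes. Symbols were taken from GENCODE and gene tables on GRCm38, and 40254 of 41388 identifiers had one.

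Counts were tested in pairs of groups with edgeR 4.0.16 in R 4.3.3 (TMM normalization, filterByExpr, quasi-likelihood test, Benjamini-Hochberg adjustment over all tested genes, called at an adjusted p under 0.1). CPM are on a TMM scale over all 12 libraries. The method was tested on simulated data. Within-group covariation used exact permutation of log2 CPM (prior count 1) over 13824 arrangements. Alternatives were DESeq2 1.42.0, limma-voom (limma 3.58.1), other normalizations, filters and thresholds, a joint fit of 12 libraries, a replicate block, and leaving out each library. Same-numbered CON and GF libraries did not deviate together, and the labels tie them to no shared animal or litter.

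The text names all 10 members, every list gene called in any comparison, the 2 list genes with the smallest unadjusted p in GF versus CON from each pathway list, and the 3 genes most like Fkbp5, Sgk1, Tsc22d3, Mt1 and Mt2 among those with a mean of at least 5 CPM. An item of the fasting list is not reported here and was left out of the counts. The members and lists were chosen with earlier results of these data known. Cell type lists not given beside a result were read too, as mean log2 CPM: oligodendrocyte precursors 4.75 to 5.07, microglia 5.12 to 5.56 and erythroid cells 1.77 to 2.82 over all libraries. Promoter windows are from RefSeq on GRCm38.p6. Columns of the exGF group carry names that do not identify single samples and were used as 4 unnumbered libraries.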

Additional observations from a re-analysis of the deposited data

Results flagged for a closer look

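In each group of 4 libraries, the members and named list genes were searched for a library far from the other 3. Of 72 groups searched, 5 held such a library, where chance gives about 1 in 20. Among the members, Nr3c2 was at 31.1 CPM in CON replicate 4 against 28.02 to 28.07 CPM in the other CON libraries, and Pdk4 was at 14.7 CPM in CON replicate 1 against 12.03 to 12.5. Among list genes, Hsd11b1 was low in CON replicate 4, at 8.91 CPM against 12.7 to 13.3. Ppard was low in the exGF library GFR1, at 19.4 CPM against 27.1 to 28.5. Slc7a11 was at 64.6 CPM in GF replicate 2 against 38.4 to 39.6 in the other GF libraries, so its GF mean rests in part on that library, and without GF replicate 2 its log2 difference in GF versus CON was -0.83 (edgeR quasi-likelihood test, Benjamini-Hochberg adjusted p = 0.0102).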

How the results depend on the processing

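Of 500 alternative values computed for the 30 log2 differences of the members, 455 kept their direction and their side of the threshold, 5 kept their direction and became calls, and 40, spread over 14 values near 0, changed sign. The calls were those of Sgk1 and Tsc22d3 by DESeq2 and without a filter on low counts, and of Tsc22d3 without CON replicate 1. Members called in GF versus CON were thus 2 by DESeq2, 2 without a filter, and 0 to 1 when each library was left out. Pathway genes called in GF versus CON were 1 with upper-quartile normalization, 3 without a filter, 3 by DESeq2, 1 by limma-voom and 0 to 2 when each library was left out. Pairs of responsive genes past the threshold were 0 to 1 when each library was left out: without CON replicate 3 the r of Mt1 and Mt2 was 0.95 (exact permutation adjusted p = 0.146) and without GFR4 it was 0.93 (0.130). For Pdk4, GF over CON was -0.0054 with upper-quartile normalization, -0.0078 without a filter and -0.0022 with at least 10 counts in every library. GF over exGF was 0.0060 for Pdk4 by limma-voom, and exGF over CON was -0.056 without CON replicate 2 and GFR4, an alternative added after the data were seen. When each library was left out in turn, GF over CON ranged from -0.024 to 0.12 for Nr3c2, from -0.26 to 0.10 for Zbtb16 and from -0.11 to 0.10 for Pdk4. On the same terms exGF over CON ranged from -0.027 to 0.12 for Nr3c1, from -0.20 to 0.15 for Zbtb16, from -0.058 to 0.10 for Pdk4, from -0.28 to 0.11 for Mt1 and from -0.37 to 0.022 for Mt2. GF over exGF ranged from -0.021 to 0.13 for Nr3c1, from -0.088 to 0.057 for Nr3c2, from -0.13 to 0.054 for Zbtb16, from -0.12 to 0.092 for Pdk4, from -0.27 to 0.13 for Mt1 and from -0.28 to 0.12 for Mt2. Except for the sign changes of Pdk4 given here with all libraries kept, every sign change came from leaving out libraries.

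Same-numbered CON and GF libraries deviated from their group means with correlations of -0.03, -0.05, -0.04 and 0.03, so their numbers were not taken as a pairing. With the replicate block, 0 members and 3 pathway genes (Per1, Dusp1 and Slc7a11) were called in GF versus CON, Tsc22d3 was at 0.41 (edgeR adjusted p = 0.227), Pdk4 at -0.0040, and 51 genes in all were called. The exGF columns carry no sample numbers, so no block could be set for that group.

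Over all tested genes, 39 calls in GF versus CON became 195 by DESeq2, 221 without a filter and 60 without GF replicate 2. In exGF versus CON 11 calls became 52, 48, 7 with at least 10 counts in every library and 17 without CON replicate 2 and GFR4. In GF versus exGF 0 calls became 14 by DESeq2, 32 without a filter, 2 in a joint fit of 12 libraries, 2 without GF replicate 4, 7 without GFR1 and 6 without GFR4. Each group held 4 pools, and members had at least 133 counts in every library. The share of counting error in the intervals was not tested.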
